A study of Mus musculus with 5 samples.

Results

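Autophagy genes encode the machinery that encloses cytoplasm in a double membrane, the autophagosome, and delivers it to the lysosome for breakdown. A kinase complex starts the process, a lipid kinase complex marks the membrane, a pair of ubiquitin-like conjugation systems attach Atg8 proteins to it, receptors bring the cargo, and the transcription factor Tfeb drives genes of autophagy and of the lysosome. In hematopoietic stem cells (HSCs), autophagy is known for clearing mitochondria and for keeping the cells in a state of low metabolic activity. The genes were 39 in number, chosen by these roles, and each was read on the probe set annotated to that gene alone that had the highest mean over the arrays. Such a probe set was found for 37 of them, out of 18193 genes read in the same way, while Optn and Bnip3l, both cargo receptors, were not analysed here.

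RNA was measured on 5 Affymetrix mouse arrays, 3 with RNA of WT HSCs and 2 with RNA of HSCs from mice homozygous for an Atxn1L null allele, all on the C57Bl/6 strain with no treatment named, aged 6 to 8 weeks by the sample labels. The cells were Lineage-negative, c-Kit+, Sca-1+ and CD150+ bone marrow cells of the side population, pooled for each array. The number of mice behind a pool and the parts of the gene removed in the null allele are not given in the sources used here, no cell type is named to which the allele is restricted, and the p-values measure only the spread between these arrays. Values are on the log2 scale of GCRMA, in which 1 unit is a doubling of signal, and they compare arrays for 1 probe set, not genes with each other. A gene was called higher or lower in Atxn1L null HSCs at a criterion of an unadjusted p of at most 0.05 in limma and a fold of at least 1.5. The thresholds are the study's, whose methods also name a correction for false discovery, and whether its p was adjusted is not stated.

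The labels were first set against the deleted gene and the sort. The Atxn1l probe set with the highest mean read 6.80, 6.69 and 4.98 in the WT arrays and 3.08 and 3.99 in the null arrays, so that the genotypes did not overlap. Of 11 measured HSC markers none passed the criterion, and 9 had a mean of at least 5 in a genotype. The exceptions were Esam and Slamf1, which encodes the sorted antigen CD150 and read no higher than 4.0 on any array. Ly6a, which encodes Sca-1, was not analysed here. The summed signal of the HSC markers was lower in both null arrays, at 17272 to 18009 against 18945 to 21542 in WT arrays, with a median difference of -0.15. The sum is weighted to the brightest marker, Procr, at 13.57 in WT and 13.39 in null HSCs. Among the HSC markers Meis1 (-0.46) and Gata2 (-0.21), transcription factors of HSCs, read lower in both null arrays than in any WT array. Tal1 (0.25), Tek (0.23), Abcg2 (0.06) and Esam (0.05) differed the other way, with overlap, so the markers did not share a direction. Of 55 markers of 7 other cell types, Cd27, a marker of multipotent and lymphoid progenitors, passed alone. It was dim, at 3.41 in WT and 4.02 in null HSCs, both below 5. All 7 erythroid markers read below 5 in both genotypes, and their summed signal was 68.4 to 83.1 in WT and 73.5 to 74.6 in null arrays. For the granulocyte and monocyte markers it was 27592 to 49659 and 29811 to 48849, and the sums of the other 5 lists overlapped as well. The excess of the 3' over the 5' signal of the Gapdh control was larger in the null arrays, at 7.27 ± 0.09 (SD, n = 2) against 5.94 ± 0.07 (SD, n = 3), and for the Actb control at 7.35 ± 0.10 (SD, n = 2) against 6.57 ± 0.15 (SD, n = 3). The part of this and of the HSC marker signal in the differences below was not tested.

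The autophagy genes that passed the criterion were all lower in Atxn1L null HSCs. They were Sqstm1, the cargo receptor p62, Ulk1, the kinase that starts autophagy, and Gabarapl1, an Atg8 protein. Thus 3 of 37 genes were lower (8.11%), where 1.43% of all genes were, and 0 were higher, where 1.57% of all genes were. Without the second null array 2 were lower and 2 higher, the latter being Uvrag (0.64) and Atg9a (0.68), where 2.33% of all genes were lower and 3.09% higher. By limma's unadjusted p alone, 5 were lower and 3 higher, where 3.03% and 4.4% of all genes were. After Benjamini-Hochberg adjustment over all 45037 probe sets, no member lay under 0.05. The lowest adjusted p was 0.312, for Sqstm1. Less RNA per cell and fewer cells expressing a gene cannot be told apart in these pools.

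The median difference of the 37 genes, null minus WT, was -0.06, and that of all genes was -0.00186. The differences ran from -0.79 to 0.53. In 21 genes the difference was negative and in 16 positive (43.2%), near the 45.4% of all genes that were positive. Both null arrays read below every WT array for 11 genes, or above every WT array for 5. Over all genes the shares without overlap were 8.35% in the first direction and 9.14% in the second. The members with a mean over all arrays of at least 5 were also set against the 7070 genes at that level. Of these 29 members 3 were lower and 0 higher at the criterion by limma, with 3.44% and 3.35% of the 7070 genes. By limma's unadjusted p alone, 5 of the 29 were lower and 1, Uvrag, was higher, with 7.2% and 8.98% of the 7070 genes. The null arrays read below all WT arrays for 11 of the 29 and above them for 2, with shares of 15.3% and 18.2%. No exact test of 3 arrays against 2 can give a p below 0.1, and with so few arrays each value is imprecise.

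**Figure D1:**
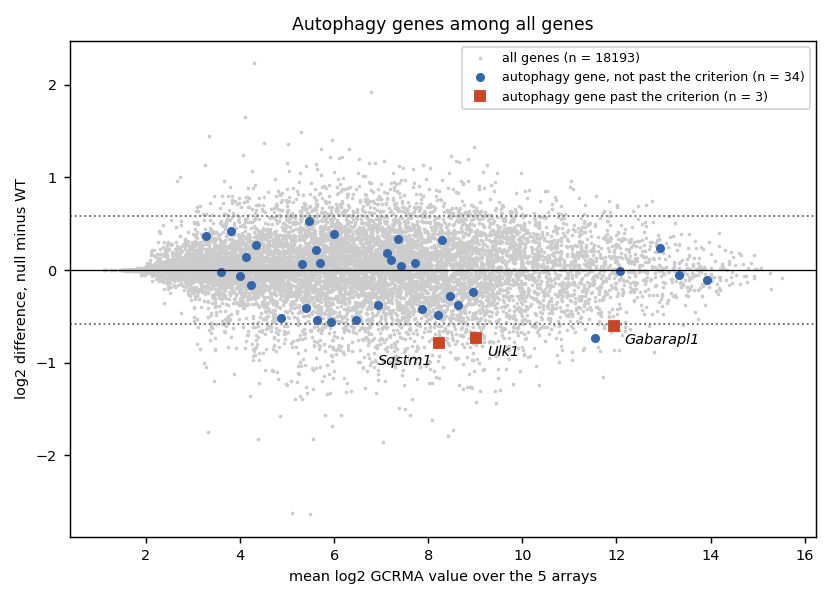
Log2 difference between genotypes (vertical axis, Atxn1L null minus WT) against the mean log2 GCRMA value over the 5 arrays (horizontal axis) for all 18193 genes (grey), the 34 autophagy genes not past the criterion (blue circles) and the 3 past it (red squares). Dotted lines mark a 1.5-fold difference, and all 3 called genes lie below the lower line.

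The start regions of the 3 genes that fell are shown because these genes carry the calls, beside that of Lamp1, a lysosomal membrane gene whose level was 12.08 in WT and 12.07 in null HSCs. RefSeq sequences on GRCm38.p6 are printed for the 100 bases before the outermost start of each gene, 5′ to 3′ on the gene's strand. Capitals mark the GC box GGGCGG, read by Sp1 family factors, and the E-box CACGTG, the core of the element that Tfeb binds, on either strand.
Ulk1, chr5:110810121-110810220, minus strand: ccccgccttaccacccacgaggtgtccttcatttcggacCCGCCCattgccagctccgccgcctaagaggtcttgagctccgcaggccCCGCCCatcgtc
Gabarapl1, chr6:129533092-129533191, plus strand: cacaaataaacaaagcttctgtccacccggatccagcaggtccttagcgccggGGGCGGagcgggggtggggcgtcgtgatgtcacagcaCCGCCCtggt
Sqstm1, chr11:50210821-50210920, minus strand: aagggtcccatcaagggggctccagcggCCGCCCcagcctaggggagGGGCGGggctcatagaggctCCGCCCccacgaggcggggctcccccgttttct
Lamp1, chr8:13159061-13159160, plus strand: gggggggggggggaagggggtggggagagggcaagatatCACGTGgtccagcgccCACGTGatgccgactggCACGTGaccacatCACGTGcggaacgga

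The stretches of Ulk1 and Gabarapl1 hold 2 GC boxes each and that of Sqstm1 holds 3, with no E-box in any of them, while that of Lamp1 holds 4 E-boxes and no GC box. Windows from 250 bases before to 50 after a start were listed for 32 of the 39 genes, 37 windows in all, and searched on both strands. A GC box was found in 25 member windows (67.6%) and in 46.2% of the 21263 windows of protein-coding genes. It lay in 23 of the 32 genes, among them uncalled ones such as Uvrag, Bnip3, Tfeb and Lamp2. The GC box thus does not set the called genes apart, and Lamp1 does not stand for the uncalled members. An E-box was found in 6 member windows (16.2%), those of Atg14, Atg3, Atg5, Atg7, Bnip3 and Lamp1, and in 7.84% of the coding windows. No E-box lay in the windows of the called genes. The longer core TCACGTGA of the Tfeb element, which contains the E-box, was in the Atg3 window and in 1.23% of coding windows. The FoxO site GTAAACA, with a share of 3.01%, was in none of the member windows. For Capicua only the octamers TGAATGAA and TGAATGGA were searched, with a share of 2.13%, and neither was in a member window. Capicua is the repressor that Ataxin-1 proteins bind. The antioxidant response core TGACNNNGC was in the windows of Ulk2, Atg13 and Map1lc3b (8.11%) and in 13% of coding windows. These matches describe letters in a short window and do not show binding.

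Among the 5 genes of the initiation complex, Ulk1 was lower at the criterion and the other 4 did not pass. Ulk1 read 9.54, 9.41 and 9.01 in the WT arrays and 8.84 and 8.32 in the null arrays. All null values lay below all WT values, the highest null value by little. It fell by 0.74 (standard error 0.25, 95% interval -1.46 to -0.02, limma adjusted p = 0.870), a 1.67-fold change. It no longer passed with the second null array left out (-0.48), nor without WT array 1 (-0.63) or 2 (-0.69). The other Ulk1 probe set was dim, at 2.95 and 2.96 in the genotypes.

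Atg101, which stabilizes Atg13 in the complex, read 8.51, 8.17 and 8.53 in WT and 8.06 and 7.76 in null arrays. The values did not overlap, but the difference of -0.49 (95% interval -0.97 to -0.02) was short of 1.5-fold. Rb1cc1, the scaffold FIP200 of the complex, read 5.80, 6.31 and 6.36 in WT and 5.44 and 5.76 in null arrays, a difference of -0.56 (95% interval -1.22 to 0.10) that did not pass. A second Rb1cc1 probe set with a mean above 5 differed by 0.12 the other way. Ulk2, the other kinase of the family, differed by 0.22 with overlapping arrays, and Atg13 by 0.06.

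The lipid kinase complex that nucleates the membrane had no gene past the criterion. Its catalytic subunit gene Pik3c3 was dim, at 3.12 and 3.48. Uvrag, a subunit of the complex form that acts late in autophagy and in endocytosis, read 5.32, 5.09 and 5.32 in WT and 5.89 and 5.65 in null arrays. The null arrays lay above all WT arrays, by 0.53 on average (95% interval 0.18 to 0.87, limma adjusted p = 0.619), a 1.44-fold difference and thus below the required fold. Atg14, which directs the early form of the complex to the forming autophagosome, read 5.29, 5.73 and 5.65 in WT and 5.15 and 5.14 in null arrays. Its difference of -0.41 (95% interval -0.86 to 0.04) did not pass, although the arrays did not overlap.

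The subunits that both forms of the complex share overlapped between the genotypes. Becn1, which binds Atg14 or Uvrag, read 8.99, 8.82 and 9.31 in WT and 8.74 and 8.88 in null arrays, and its second probe set above 5 differed by -0.11. Pik3r4, the regulatory subunit, read 8.18, 7.94 and 8.33 in WT and 8.30 and 8.65 in null arrays. Their differences were -0.23 (95% interval -0.73 to 0.26) and 0.32 (95% interval -0.17 to 0.82), which leaves changes of either sign possible.

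None of the 5 genes for membrane supply and binding of the marked lipid passed. Atg2b, a lipid transfer protein, read 6.14, 5.92 and 5.49 in WT and 5.36 and 5.26 in null arrays, without overlap, a difference of -0.54 (95% interval -1.17 to 0.09). Its second probe set differed by 0.29 in the opposite direction, also without overlap, so the gene has no single direction here. Its paralog Atg2a read 7.10, 7.15 and 6.89 in WT and 7.07 and 7.39 in null arrays. Wipi1, which binds the lipid, read 6.79, 6.79 and 7.88 in WT and 7.0 and 7.52 in null arrays, with the widest interval of the 37 genes, -1.19 to 1.40. The related Wipi2 differed by -0.54 and Atg9a, a membrane protein of Golgi-derived vesicles, by 0.39, both with arrays that touched or overlapped.

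**Figure D2:**
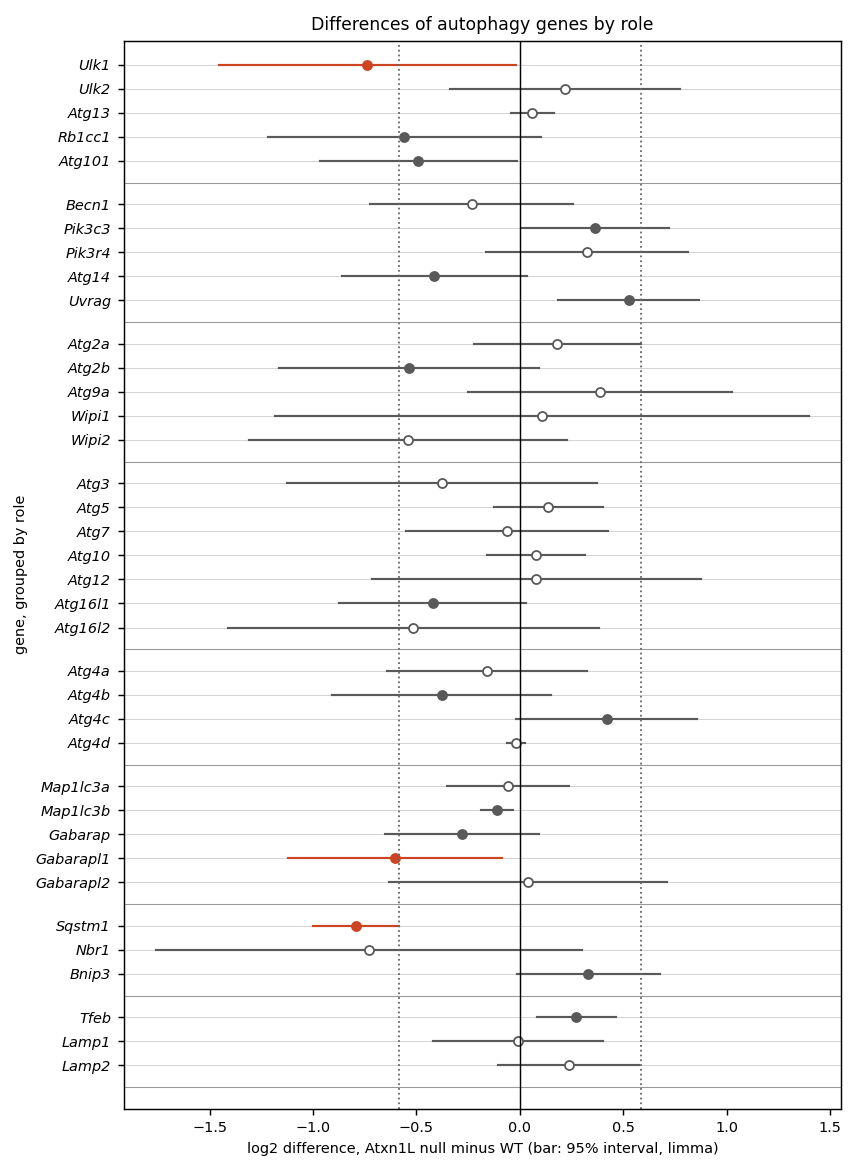
Log2 difference, Atxn1L null minus WT (horizontal axis), with its 95% interval from limma for each of the 37 autophagy genes (vertical axis, grouped by role and separated by lines), red for genes past the criterion. Filled points mark genes whose null arrays all lie on 1 side of the WT arrays, and dotted lines mark 1.5-fold. Ulk1, Gabarapl1 and Sqstm1 lie left of the lower line with intervals below 0.

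The conjugation enzymes, which attach Atg12 to Atg5 and Atg8 proteins to the membrane, likewise had no gene past the criterion among 7. Atg16l1, which sets where the Atg8 proteins are attached, read 8.32, 7.88 and 7.93 in WT and 7.62 in both null arrays. The null arrays lay below all WT arrays, by 0.42 on average (95% interval -0.87 to 0.03), short of the required fold. Atg3, the enzyme that transfers Atg8 proteins to the lipid, read 9.16, 8.40 and 8.77 in WT and 8.29 and 8.51 in null arrays, which overlapped. Atg12 and Atg10 differed by 0.08 each, and a second Atg12 probe set with a mean above 5 by -0.28, with overlap. Atg5 and Atg7, genes often deleted to block autophagy in HSCs, had WT means of only 4.08 and 4.02, and differed by 0.14 (95% interval -0.12 to 0.40) and -0.06 (95% interval -0.55 to 0.43). Atg16l2, at 5.07 in WT HSCs, differed by -0.51 on 1 probe set and by 0.50 on another.

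Of the 4 Atg4 proteases, which trim Atg8 proteins and release them again, Atg4b alone had a mean of at least 5. It read 7.05, 6.84 and 7.38 in WT and 6.66 and 6.76 in null arrays, a difference of -0.38 (95% interval -0.91 to 0.15) without overlap that did not pass. Its other probe set above 5 differed by -0.22. Atg4a read 4.37, 4.16 and 4.35 in WT and 4.36 and 3.91 in null arrays, and Atg4c and Atg4d were dim too.

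**Figure D3:**
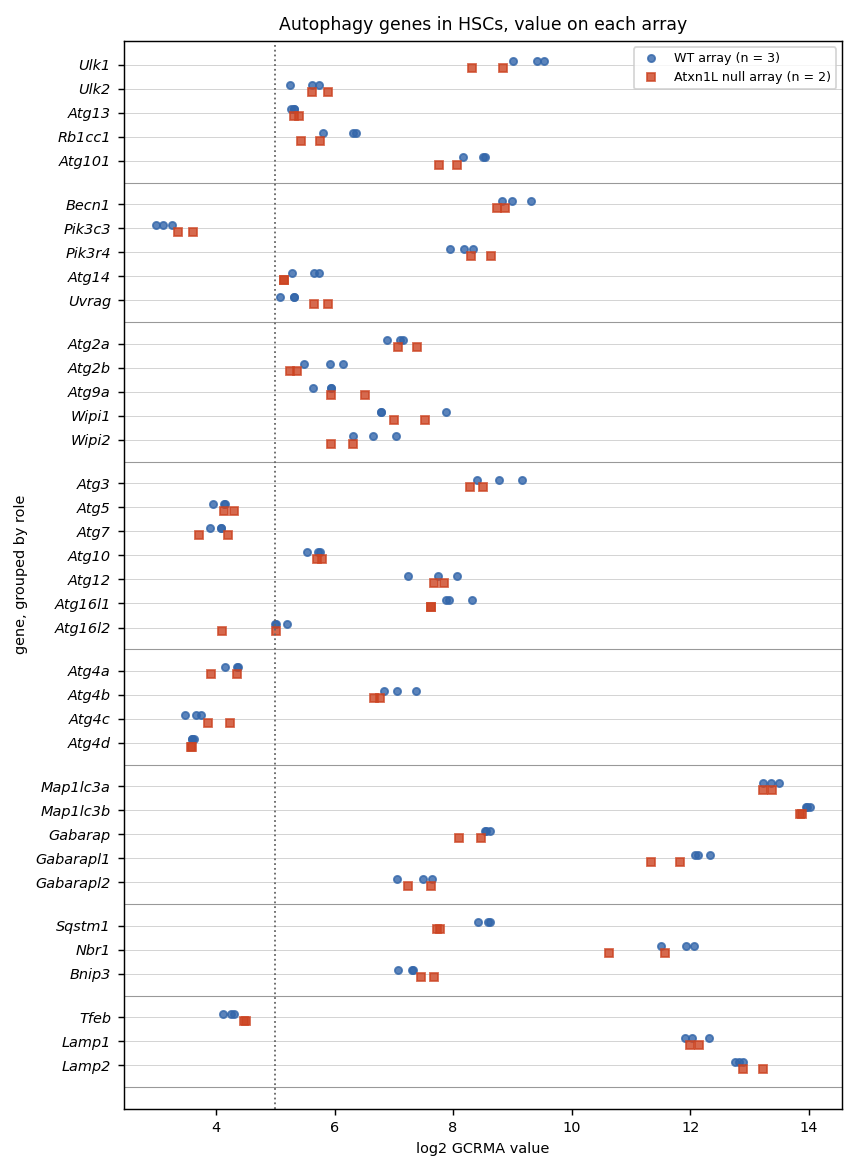
Log2 GCRMA value (horizontal axis) on each array for the 37 autophagy genes (vertical axis, grouped by role in the order of the text), blue circles for the 3 WT and red squares for the 2 Atxn1L null arrays. The dotted line marks a value of 5, and 7 genes lie below it in both genotype means. The null squares of Sqstm1 and Gabarapl1 lie left of all WT circles.

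The Atg8 proteins coat the autophagosome and bind the receptors, and Gabarapl1 was the member of this family that passed on its brightest probe set. It read 12.33, 12.14 and 12.09 in WT and 11.82 and 11.34 in null arrays, without overlap. Gabarapl1 fell by 0.60 (standard error 0.18, 95% interval -1.12 to -0.09, limma adjusted p = 0.793), or 1.52-fold, just past the required fold. A second probe set differed by -0.58, from 9.28 to 8.70, and did not pass. The identifier of the called probe set marks it as one that can match several transcripts. The call ended without the first WT array (-0.53), the second (-0.63), the third (-0.65) or the second null array (-0.36).

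Map1lc3b, which encodes the LC3 protein used to count autophagosomes, gave different answers on its probe sets. The brightest read 14.02, 13.95 and 13.97 in WT and 13.89 and 13.85 in null arrays, a difference of -0.11 that is larger than the spread within a genotype and far below 1.5-fold. The dimmest of the 4 read 9.49, 9.11 and 8.12 in WT and 7.50 and 7.26 in null arrays and passed the criterion at -1.52 (standard error 0.48, limma adjusted p = 0.812). That call ended without the first (-1.23) or second WT array (-1.42), and without the first (-1.65) or second null array (-1.40). Another differed by -0.38 without overlap, and the last by 0.20 with overlap. Counting any probe set, 4 of 37 members were thus lower, where 2.21% of all genes were, and 0 were higher in limma, where 2.3% of all genes were.

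Map1lc3a, the paralog of Map1lc3b, read 13.22, 13.36 and 13.49 in WT and 13.22 and 13.37 in null arrays on its brightest probe set. These arrays overlapped, with a difference of -0.06 (95% interval -0.35 to 0.24). The identifier of this probe set marks it as one that can match other transcripts. The second Map1lc3a probe set, without such a mark, read 10.31, 10.03 and 10.54 in WT and 9.70 and 9.73 in null arrays, without overlap. That difference of -0.58 (95% interval -1.07 to -0.09), a 1.49-fold change, was just short of the criterion. Gabarap read 8.62, 8.53 and 8.55 in WT and 8.48 and 8.10 in null arrays, a difference of -0.28 without overlap, and Gabarapl2 differed by 0.04 (95% interval -0.63 to 0.71).

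Several probe sets could be compared for 9 members with at least 2 probe sets at a mean of 5 or more. In Atg4b, Becn1, Gabarapl1 and Map1lc3a every such probe set was lower in null HSCs, in none was every one higher, and in the other 5 the signs were mixed. Over all 84 probe sets of the members, 4 were lower and 0 higher at the criterion by limma, with 1.22% and 1.3% of the 34945 probe sets named for 1 gene. By limma's unadjusted p alone, 3 members were higher on the probe set with the highest mean, as given above.

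**Figure D4:**
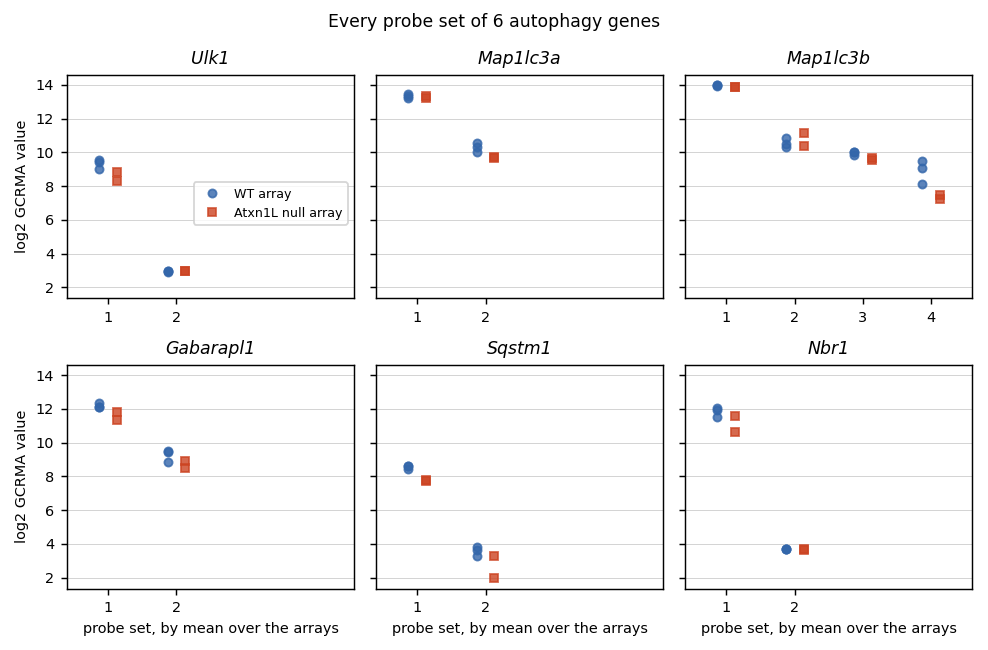
Log2 GCRMA value (vertical axis) on each array for every probe set (horizontal axis, numbered from the brightest) of Ulk1, Map1lc3a, Map1lc3b, Gabarapl1, Sqstm1 and Nbr1, blue circles for WT and red squares for Atxn1L null arrays. For Map1lc3b the brightest probe set differs by -0.11 and the dimmest by -1.52.

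The cargo receptor Sqstm1, which binds ubiquitin and Atg8 proteins and is itself degraded by autophagy, had the largest difference of the 37 genes and the smallest p. It read 8.62, 8.59 and 8.43 in WT and 7.73 and 7.78 in null arrays, so that every null array lay well below every WT array. From 8.55 ± 0.10 (SD, n = 3) to 7.75 ± 0.04 (SD, n = 2), it fell by 0.79 (standard error 0.07, 95% interval -1.0 to -0.59, limma adjusted p = 0.312), a 1.73-fold change. The call held without any 1 array, with differences from -0.85 to -0.76. A second, dim probe set read 3.79, 3.63 and 3.29 in WT and 3.29 and 1.95 in null arrays.

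Nbr1, a receptor of the same kind, read 12.06, 11.51 and 11.92 in WT and 10.64 and 11.57 in null arrays. The second null array lay within the WT range, and the difference of -0.73 (95% interval -1.76 to 0.30) did not pass. Without the second null array it did, at -1.19. Bnip3, a receptor on mitochondria that hypoxia induces, read 7.06, 7.33 and 7.30 in WT and 7.45 and 7.67 in null arrays. It lay higher in both null arrays, by 0.33 on average (95% interval -0.01 to 0.68), short of the required fold.

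The lysosomal members and their regulator did not pass. Lamp2, a lysosomal membrane protein needed for fusion and for chaperone-mediated autophagy, read 12.89, 12.82 and 12.76 in WT and 12.89 and 13.23 in null arrays, a difference of 0.24 (95% interval -0.10 to 0.58). The other Lamp2 probe sets with a mean above 5 differed by 0.77 and -0.02, both with overlap. Lamp1, the paralog of Lamp2, read 11.91, 12.31 and 12.03 in WT and 12.14 and 12.00 in null arrays, a difference of -0.01 (95% interval -0.42 to 0.40). Tfeb was dim, at 4.25, 4.11 and 4.30 in WT and 4.51 and 4.48 in null arrays, and lay higher in both null arrays by 0.27, or 1.21-fold.

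Genes of the same pathway that are not among the 39 were read from 3 lists, with 126 of 133 genes measured. At the criterion 1 was higher and 1 lower, 0.794% each, against 1.57% and 1.43% of all genes. Of 39 further machinery and adaptor genes, Tmem41b, which encodes an endoplasmic reticulum lipid scramblase needed for autophagosome formation, read 6.41, 7.13 and 7.27 in WT and 7.84 and 7.89 in null arrays, and rose by 0.93 (95% interval 0.06 to 1.81). Of 37 genes of mTORC1, AMPK and transcriptional control, Mlst8, a subunit of the mTOR complexes, read 6.21, 5.74 and 5.85 in WT and 5.15 and 5.46 in null arrays, and fell by 0.63 (95% interval -1.18 to -0.08). Of 50 genes of lysosomal enzymes, membrane proteins and the proton pump, 0 passed in limma, while 4 were lower and 2 higher by the unadjusted p alone, which 3.03% and 4.4% of all genes passed in these directions. In 63 of the 126 genes the difference was positive (50%, where 45.4% of all genes were) and in 63 negative. Tmem41b fell short of the criterion when the second WT array (1.03) or a null array (0.96 and 0.91) was left out. The Mlst8 call held without the second WT array and ended without the first (-0.49), the third (-0.67) or either null array (-0.48 and -0.79).

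**Figure D5:**
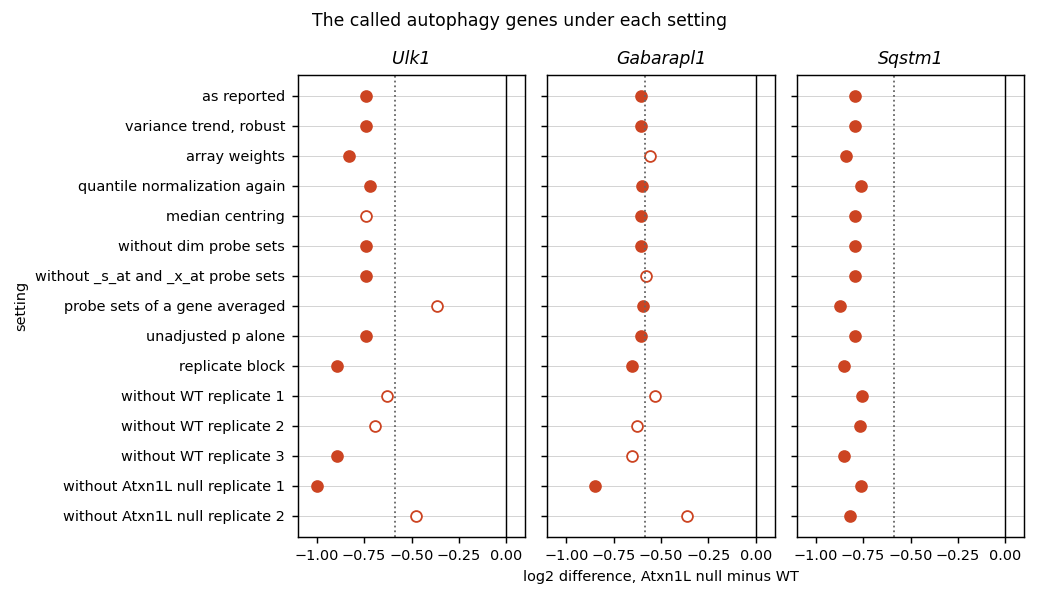
Log2 difference, Atxn1L null minus WT (horizontal axis), of the 3 called autophagy genes as reported and under each alternative setting (vertical axis). Filled points pass the criterion, open points do not, and the dotted line marks 1.5-fold. Sqstm1 passes in every setting, while Ulk1 and Gabarapl1 drop out in several.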

How the data were processed

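RNA of sorted HSC pools was amplified by T7 in vitro transcription, labelled with biotin and hybridised to MOE430.2 arrays. The authors processed the intensities with GCRMA in R (version: not given in the sources used here). The deposited values are log2, as their range shows, and cover 45101 probe sets.

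From there, 64 control probe sets were left out and 45037 probe sets were fitted in limma 3.58.1 under R 4.3.3, with a mean per genotype and no block, by lmFit and eBayes (3 residual and 0.771 prior degrees of freedom). Benjamini-Hochberg adjustment ran over all of them. The platform annotation gave 34945 probe sets 1 gene, 932 several genes and 9160 none, and the Entrez IDs changed 0 symbols. Summed marker signals are sums of the values after leaving the log scale.

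Members and lists were chosen with earlier results of these data known. Values on every array are given for members past the criterion on any probe set, members at a mean of at least 5 without overlap of genotypes, and the 2 members of each role with the highest mean. Of the other pathway genes, those past the criterion are named. Nbr1, Atg9a and Atg16l2 were followed through the alternatives after their values were seen, as were the motifs searched. Promoters are from RefSeq on GRCm38.p6, and 7 members had no window there. The alternatives tried were the variance model, array weights, normalization, dim or cross-hybridizing probe sets, the treatment of several probe sets, the criterion, a replicate block and each array left out.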

Additional observations from a re-analysis of the deposited data

How the results depend on the processing

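No direction turned in 265 values of single genes under the alternatives, but this says little about robustness. Most of these genes were followed because the genotypes did not overlap, and leaving out 1 array cannot then turn the sign. A changed variance model or criterion leaves the difference as it is. Of the 265 values, 224 kept their side of the criterion, 26 fell short of it and 15 came to pass it. Sqstm1 passed under all of its 14. The Ulk1 call also ended with median centring (-0.74) and with averaged probe sets (-0.36), and the Gabarapl1 call with array weights (-0.56) and without _s_at and _x_at probe sets (-0.58). With array weights 5 members were lower, with Atg14, Atg2b and Rb1cc1 in and Gabarapl1 out, and 1 higher, where 2.1% and 2.12% of all genes were. At the unadjusted p alone 5 were lower (3.03% of all genes), 3 higher (4.4%) and 17 further pathway genes passed, against 2 as reported. That count was 4 of 126 with array weights and with a variance trend, where 1.85% of all genes were lower and 1.89% higher. It was 4 of 106 without dim probe sets (4.6% and 4.38% of all genes). Without _s_at and _x_at probe sets it was 4 of 124 (1.49% and 1.39%). With averaged probe sets it was 1 of 126 (0.781% and 0.632%), and with any probe set 7 of 126 (2.21% and 2.3%). With 1 array left out the lower members numbered 2 to 4, the higher 0 to 2 and the pathway genes 1 to 9, where 0.901% to 2.33% of all genes were lower and 1.1% to 3.09% higher, so the pathway count rests on single arrays. Members lower then were also Rb1cc1 without the first WT array (-0.74), Atg101 without the second (-0.61), Atg2b without the third (-0.72), Atg16l2 without the first null array (-0.98) and Nbr1 without the second. The median difference of -0.06 was -0.17 without dim probe sets, -0.00889 with averaged probe sets, and -0.127 to -0.030 with 1 array left out.

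Replicate numbers 1 and 2 occur in both genotypes, but the labels give them no meaning, so same-numbered arrays were not paired. These arrays deviated from their genotype means with correlations of -0.03 and -0.26 over probe sets. The deviations of the 2 null arrays mirror each other, so the correlations are not independent and cannot settle a pairing. With the replicate number as a block, 5 members were lower, where 1.02% of all genes were, and the median difference was -0.10. The third WT array has no null array of its number. The differences of the block fit therefore equal those without that array, with Ulk1 at -0.89 and Sqstm1 at -0.85 in both. Of the further pathway genes 1, Lamtor2, then passed, and the Tmem41b (1.10) and Mlst8 (-0.67) calls ended. Dim members, 7 of 37, have little signal in which a change could be seen.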
